A study of Mus musculus with 2 samples.

Results

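Keratins form the intermediate filaments of epithelial cells, and E-cadherin and EpCAM hold neighbouring epithelial cells together. The 8 genes described here were read by symbol from the feature lists of 2 single-cell libraries: the simple keratins Krt19, Krt8, Krt18 and Krt7, the basal keratins Krt14 and Krt5, and the adhesion genes Cdh1 and Epcam. They are 8 of 32285 features, and 7 of them had at least 1 UMI (unique molecular identifier, a tag that marks 1 captured transcript), as did 15852 features in all. Every cell barcode of both libraries was used, including those in which over 20% of UMIs were mitochondrial.

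The libraries, replicate 1 and replicate 2, belong to 1 group and there is no control group. Both were made from wild-type mice that had undergone burn/tenotomy. In this injury the skin is burned and a tendon is cut, and bone then forms outside the skeleton, a process known as heterotopic ossification. Cells were sorted from whole blood in the iChip, a microfluidic sorter. The sorted cells, labelled as blood cells and circulating mesenchymal progenitor cells (cMPCs), were then barcoded on the 10x Chromium platform. Nothing in the labels says whether the replicates came from separate mice, how many mice were used or how long after injury blood was drawn, so the spread between the libraries may be technical.

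Keratins assemble as pairs of a type I and a type II protein. In simple epithelia, which are a single layer of cells, the main pair is Krt8 (type II) with Krt18 (type I), with Krt19 (type I) and Krt7 (type II) in ductal and lining epithelia. The mesothelium, the sheet that lines the body cavities, is of mesodermal origin and carries simple keratins together with the transcription factor Wt1 and the mucin Muc16. In the basal layer of skin and other stratified epithelia the pair is Krt14 (type I) with Krt5 (type II). Col3a1, a fibrillar collagen, and Dcn, the matrix proteoglycan decorin, are usual marks of fibroblasts and other mesenchymal cells. Wt1, Muc16, Col3a1 and Dcn are the 4 partner genes whose detection is set against the keratins below.

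In mm10 coordinates (GENCODE M21) the members lie in 2 keratin clusters and at 2 other loci, and all are annotated as protein coding. The type II genes and Krt18 are on chromosome 15: Krt7 at chr15:101411043-101430313 on the plus strand, Krt5 at chr15:101707070-101712898 on the minus strand, Krt8 at chr15:101996698-102004482 on the minus strand, and Krt18 at chr15:102028180-102032027 on the plus strand. The type I genes Krt19 (chr11:100140810-100148665) and Krt14 (chr11:100203162-100207548) are on the minus strand of chromosome 11. Cdh1 is at chr8:106603351-106670246 and Epcam at chr17:87635979-87651129, both on the plus strand.

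The 250 bases upstream of RefSeq's start are shown for the chromosome 15 members, because Krt7, Krt8 and Krt18 were detected while Krt5, in the same cluster, had no UMI. The sequences are RefSeq's for GRCm38.p6, 5′ to 3′ on the strand of the gene. RefSeq's start is not the outermost GENCODE gene boundary given above, so the Krt7, Krt8 and Krt18 windows lie wholly or partly inside those gene spans. Capitals mark 2 motifs searched on both strands: the E-box CACCTG (reverse complement CAGGTG), a sequence that the Snail and Zeb repressors of epithelial genes can bind, and the GC box GGGCGG (reverse complement CCGCCC).
Krt7: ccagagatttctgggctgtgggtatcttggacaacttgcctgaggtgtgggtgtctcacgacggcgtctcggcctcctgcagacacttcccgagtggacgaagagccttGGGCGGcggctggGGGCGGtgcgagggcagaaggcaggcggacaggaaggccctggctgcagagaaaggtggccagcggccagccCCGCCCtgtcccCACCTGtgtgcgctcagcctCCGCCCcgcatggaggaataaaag
Krt8: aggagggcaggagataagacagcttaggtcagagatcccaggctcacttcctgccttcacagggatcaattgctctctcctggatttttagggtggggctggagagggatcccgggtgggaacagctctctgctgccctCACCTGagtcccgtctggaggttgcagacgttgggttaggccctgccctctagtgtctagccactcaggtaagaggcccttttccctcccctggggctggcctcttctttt
Krt18: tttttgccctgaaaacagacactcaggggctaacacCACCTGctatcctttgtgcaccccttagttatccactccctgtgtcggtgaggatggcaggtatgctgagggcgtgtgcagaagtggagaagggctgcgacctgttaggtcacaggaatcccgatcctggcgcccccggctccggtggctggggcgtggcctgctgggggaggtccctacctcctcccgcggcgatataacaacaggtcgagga
Krt5: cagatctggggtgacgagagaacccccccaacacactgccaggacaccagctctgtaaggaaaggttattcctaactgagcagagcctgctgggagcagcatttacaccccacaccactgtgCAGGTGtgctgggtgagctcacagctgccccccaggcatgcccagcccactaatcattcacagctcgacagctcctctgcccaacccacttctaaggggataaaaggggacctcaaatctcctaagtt
The windows are chr15:101412153-101412402 for Krt7, chr15:102004343-102004592 for Krt8, chr15:102027966-102028215 for Krt18 and chr15:101712906-101713155 for Krt5. Each of the 4 held 1 E-box, which began 44 bases before the start in Krt7, 111 in Krt8, 214 in Krt18 and 128 in Krt5. Of the other members with a RefSeq window, Epcam, with 2 UMIs, held 2 E-boxes and Krt14, with 50 UMIs, held none (0). The Krt14 window, chr11:100206031-100206280, lies wholly inside its gene span. Whether the E-box goes with detection was not tested. It was present in 17.2% of 32851 promoter windows of this length. Krt7 held the GC box at 4 places and Epcam at 1, and Krt8, Krt18, Krt5 and Krt14 held none, against 32.7% of all windows. Neither TATAAA on the gene's strand (7.59% of all windows) nor TGANTCA on either strand (6.75%) was found in these 6 windows. RefSeq windows of Krt19 and Cdh1 were not used here. The motif matches describe these letters and not binding.

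Depth and content differed widely between barcodes. Replicate 1 held 1008 barcodes with 3967318 UMIs and replicate 2 held 849 with 3329292, with medians of 2219 and 1643 UMIs per barcode, and no barcode sequence was shared (0). Over 20% of UMIs were mitochondrial in 440 barcodes of replicate 1 and 328 of replicate 2. Of the remainder, 476 and 389 had at least 40% haemoglobin among their non-mitochondrial UMIs and are called red cell barcodes here. The other 92 and 132 are called low-haemoglobin barcodes. This last set is uneven: 88 of 92 had at least 100 detected genes in replicate 1, but only 40 of 132 in replicate 2. Of the labelled cell types, the leukocyte marker Ptprc (CD45) had a UMI in 85 and 12 barcodes.

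Keratin transcripts were rare and dominated by Krt19. The 8 genes gave 109 UMIs in replicate 1 and 276 in replicate 2, in 25 barcodes (2.48%) and 23 barcodes (2.71%). Pooled over both libraries this was 48 of 1857 barcodes, or 2.58% (exact binomial 95% interval 1.91% to 3.41%, which covers counting error only, as do all intervals given here). In counts per 1e6 UMIs of the library (CPM), the members together stood at 27.5 in replicate 1 and 82.9 in replicate 2. The gap between libraries came with 1 barcode of replicate 2, which alone held 163 simple keratin UMIs. Without it the levels were 27.5 and 22.3 CPM.

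Krt19, the smallest keratin and the one that lacks most of the tail domain, had 63 UMIs in replicate 1 and 97 in replicate 2, which is 15.9 and 29.1 CPM (22.5 ± 9.37, SD, n = 2). It was found in 38 of the 48 barcodes. Krt7, the type II keratin of ductal and mesothelial linings, had 19 and 55 UMIs, or 4.79 and 16.5 CPM (10.7 ± 8.30). Krt8, the type II partner of Krt18, had 10 and 60 UMIs, or 2.52 and 18.0 CPM (10.3 ± 10.96). Krt18 itself had 8 and 18 UMIs, or 2.02 and 5.41 CPM (3.71 ± 2.40). All 4 simple keratins were thus higher in replicate 2, the library with the single rich barcode.

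Of the basal pair, Krt14 had 6 UMIs in replicate 1 and 44 in replicate 2 (1.51 and 13.2 CPM, 7.36 ± 8.28), and 38 of the 44 lay in the same rich barcode. Krt5 had no UMI in either library (0 of 1857 barcodes, which allows a share of up to 0.162%). The basal pair was therefore never seen as a pair. Krt14 is close in sequence to Krt16 and Krt17, which had 2 and 8 UMIs, and the labels do not say how reads shared by such genes were assigned.

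The adhesion genes were close to the limit of detection. Cdh1 (E-cadherin) had 2 UMIs in replicate 1 and 1 in replicate 2, or 0.402 ± 0.144 CPM. Epcam had 1 UMI in each, or 0.276 ± 0.0342 CPM. Both lie under the level that 3 UMIs would give, which is 0.756 CPM in replicate 1 and 0.901 in replicate 2. The 2 Cdh1 UMIs of replicate 1 were in a barcode with 95.8% mitochondrial UMIs, 34 detected genes and no keratin. The other Cdh1 UMI and both Epcam UMIs were in barcodes that carried simple keratins.

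**Figure D1:**
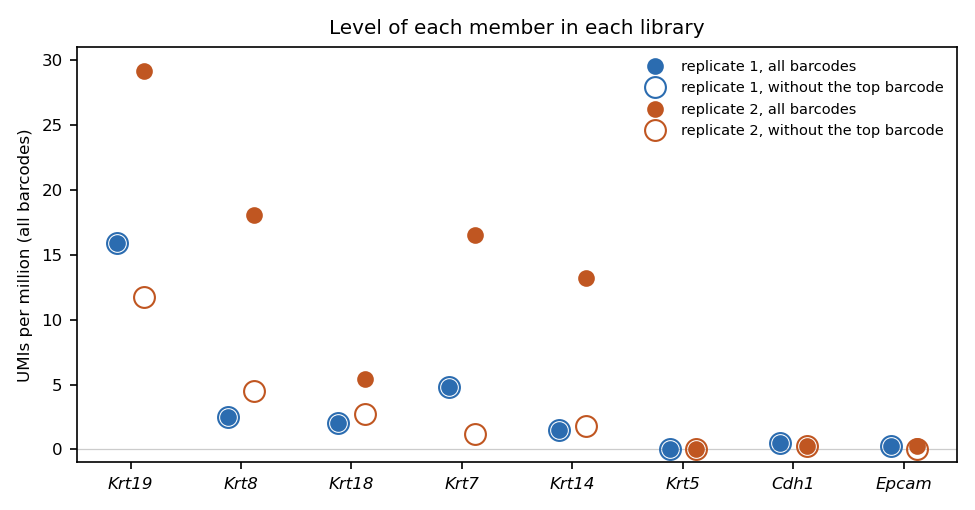
Level of each of the 8 genes in CPM of the library (linear axis); filled circles use all barcodes and open circles leave out the replicate 2 barcode with most simple keratin UMIs. With it, Krt19, Krt8, Krt18, Krt7 and Krt14 are higher in replicate 2; without it, Krt19 and Krt7 are higher in replicate 1.

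Without the rich barcode the order of the mean levels was Krt19 (13.8 CPM), Krt8 (3.52), Krt7 (4.79 in replicate 1 and 1.21 in replicate 2), Krt18 (2.36) and Krt14 (1.66). Krt19 stood above every other member in each library with or without that barcode. Krt8 stood above Krt18 in each library with or without that barcode, but in replicate 1 only by 2.52 against 2.02 CPM. Krt7 spanned the levels of the other 3 and so has no fixed place. Without that barcode Krt14 lay under Krt8 and Krt18 in each library, but under Krt18 by at most 3 UMIs. With it, Krt14 stood above Krt18 in replicate 2, at 13.2 against 5.41 CPM. Per kilobase of annotated exon, over both libraries, Krt19 had 86.3 UMIs, Krt8 35.8, Krt14 28.4, Krt18 18.1 and Krt7 10.5, beside 53.1 for Dcn, 37.1 for Col3a1, 26.6 for Wt1 and 8.50 for Muc16. UMIs are read at an end of a transcript and need not grow with its length, so these densities only set genes on 1 scale.

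Members were found in a small class of barcodes. Among low-haemoglobin barcodes, 12 of 92 (13.0%) in replicate 1 and 13 of 132 (9.85%) in replicate 2 had a simple keratin UMI. None of 865 red cell barcodes had a UMI of any member, which allows a share of up to 0.347%. The median depth was 2645 UMIs in the simple keratin barcodes against 5937 in the red cell barcodes. Haemoglobin made up 0.352% of all UMIs in the former and 88.5% in the latter. Total depth thus overstates how well other genes were sampled in red cell barcodes. None of 97 barcodes with a Ptprc UMI had a member UMI either, which allows up to 3.09% at a median depth of 1632 UMIs. That limit lies above the 2.58% found over all barcodes, so this 0 does not set the Ptprc barcodes apart from all barcodes. The 2.58% includes the 865 red cell barcodes, which had no member UMI. Among low-haemoglobin barcodes, 55 in replicate 1 and 5 in replicate 2 had a Ptprc UMI, and none of these had a simple keratin. That stands beside the 12 of 92 and 13 of 132 above, and the difference was not tested. In the other direction, haemoglobin UMIs were present in 45 of the 47 barcodes with a simple keratin, from 0 to 384 UMIs each.

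Barcodes with many mitochondrial UMIs were not devoid of keratins. At 20% to 80% mitochondrial UMIs, 10 of 74 barcodes (13.5%) in replicate 1 and 6 of 43 (13.95%) in replicate 2 had a simple keratin, against 2.11% and 2.50% at up to 20%, a class made up mostly of red cell barcodes, and 0.546% and 1.40% at over 80%. Pooled, the middle class gave 13.7% (8.02% to 21.3%). With every barcode thinned to 500 UMIs the pooled shares were 8.55% in the middle class, 1.10% at up to 20% and 0.307% at over 80%. The low-haemoglobin barcodes alone, which leave out the red cells at up to 20%, gave 5.36%. By library they gave 5.43% against 10.8% in the middle class in replicate 1, but 5.30% against 4.65% in replicate 2. The middle class was thus not highest in both libraries. The 22 keratin barcodes over 20% held 37 simple keratin UMIs and no Krt14 UMI, with a median depth of 1107 UMIs, while the 25 at up to 20% held 293 and a median of 5727 UMIs.

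**Figure D2:**
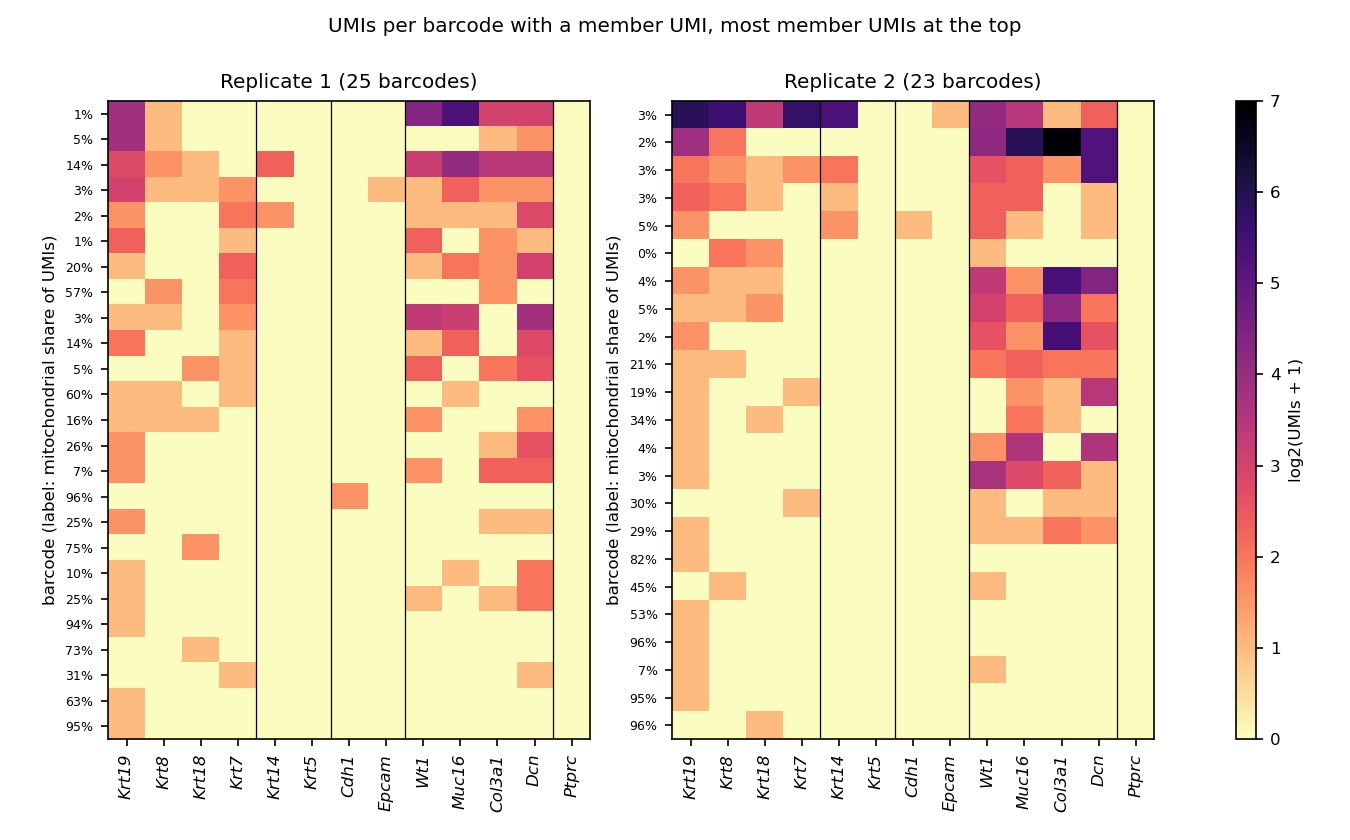
UMIs (log2 of UMIs + 1) of the 8 genes, the 4 partner genes and Ptprc in each of the 25 barcodes of replicate 1 and 23 of replicate 2 with a member UMI; rows run from most to fewest member UMIs and are labelled with the mitochondrial share. Krt19 fills most rows, Krt14 is found in 6, Krt5 and Ptprc in none, and the partner genes lie mainly in rows with a low mitochondrial share.

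Within barcodes, basal keratin was found only on top of simple keratin in these libraries. Of the 47 barcodes with any of the 6 keratins, 41 had simple keratins alone (22 in replicate 1, 19 in replicate 2), 6 had simple keratin and Krt14 (2 and 4), and none had Krt14 or Krt5 alone. All 6 Krt14 barcodes also had Krt19. Apart from the rich barcode, their Krt14 UMIs numbered 4 and 2 in replicate 1 and 3, 2 and 1 in replicate 2. Their median depth of 7390 UMIs was above the 1867 UMIs of the simple-only barcodes, and what part depth has in finding Krt14 was not tested. A count of 6 barcodes gives 12.8% of the keratin barcodes, and thinning to 500 UMIs left 8.57% as the mean of the libraries.

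The type I and type II partners were seen together in 21 barcodes (12 in replicate 1, 9 in replicate 2). Another 22 had only type I keratins, 17 of them Krt19 alone, and 4 had only type II. The textbook pair Krt8 with Krt18 was seen in 9 barcodes, while Krt8 with either Krt18 or Krt19 was seen in 15 of the 17 barcodes that had Krt8. Krt19 and Krt8 shared 14 barcodes, Krt19 and Krt7 shared 10, and all 4 simple keratins met in 3. Barcodes with type I alone were shallow (median 1261.5 UMIs) against 4815 UMIs where both types were found. A single simple keratin UMI was all that 18 of the 47 barcodes had, so an unseen partner is not shown to be absent.

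Keratin content varied widely between barcodes. Among the keratin barcodes with at most 20% mitochondrial UMIs, simple keratins stood at 310 to 3861 CPM of the barcode in replicate 1 (median 1138, 12 barcodes) and 140 to 13334 in replicate 2 (median 809, 13 barcodes). The medians of the libraries were closer than the range within either library. Only 5 barcodes had 10 or more simple keratin UMIs.

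The rich barcode of replicate 2 held 12224 UMIs and 4130 genes with 2.81% mitochondrial UMIs. It had 58 UMIs of Krt19, 51 of Krt7, 45 of Krt8, 9 of Krt18, 38 of Krt14 and 1 of Epcam, and none of Krt5 or Cdh1. Its simple keratins stood at 13334 CPM, against 6711 in the next richest barcode of that library, which had only 5 simple keratin UMIs. By UMIs the next barcode had 17. The same barcode had 16 UMIs of Wt1, 10 of Muc16, 4 of Dcn, 1 of Col3a1 and none of Ptprc. It also held 23 UMIs of Dmkn (dermokine) and 19 of Lgals7 (galectin-7), both secreted or cytosolic proteins known from skin keratinocytes, and 13 of Tagln and 8 of Acta2, which are contractile proteins of smooth muscle. These are the values of 1 barcode, and whether it held more than 1 cell was not tested.

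The next barcodes by simple keratin UMIs were unlike each other. In replicate 2 a barcode with 21012 UMIs had 14 of Krt19 and 3 of Krt8, with 124 of Col3a1, 59 of Muc16, 37 of Dcn and 17 of Wt1. In replicate 1 a barcode with 11842 UMIs had 13 of Krt19 and 1 of Krt8, with 38 of Muc16, 19 of Wt1, and 7 each of Col3a1 and Dcn. Another of replicate 1, with 4045 UMIs, had the same 13 and 1 keratin UMIs but 2 of Dcn, 1 of Col3a1 and none of Wt1 or Muc16. A high keratin count thus came with many UMIs of the partner genes in some barcodes and with few in others.

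The partner genes were detected in most keratin barcodes of each library and in few others. At least 1 of Wt1, Muc16, Col3a1 and Dcn had a UMI in 19 of 24 simple keratin barcodes in replicate 1 (79.2%, interval 57.8% to 92.9%) and in 18 of 23 in replicate 2 (78.3%, 56.3% to 92.5%), against 50 of 984 (5.08%) and 34 of 826 (4.12%) of the barcodes without simple keratin. Seen from the partner genes, 37 of the 121 barcodes that had one of them (30.6%) also had a simple keratin, and these held 77.3% of the partner UMIs.

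Wt1, a transcription factor of the mesothelium and the kidney, was found in 12 of 24 keratin barcodes (50%) in replicate 1 and 16 of 23 (69.6%) in replicate 2, against 8 of 984 (0.813%) and 5 of 826 (0.605%) of the others. Of all 41 Wt1 barcodes, 28 (68.3%) had a simple keratin, and they held 86.1% of the Wt1 UMIs. Muc16, the membrane mucin known as CA125, was found in 9 of 24 (37.5%) and 14 of 23 (60.9%), against 7 in each of the other sets (0.711% and 0.847%). Of 37 Muc16 barcodes, 23 (62.2%) had a simple keratin.

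The matrix genes were found in like shares of the keratin barcodes, but a smaller part of their own barcodes had a keratin. Col3a1 was found in 13 of 24 (54.2%) and 12 of 23 (52.2%) keratin barcodes, against 18 (1.83%) and 13 (1.57%) of the others, and 25 of its 56 barcodes (44.6%) had a simple keratin. Dcn was found in 17 of 24 (70.8%) and 14 of 23 (60.9%), against 37 (3.76%) and 21 (2.54%), and 31 of its 89 barcodes (34.8%) had a simple keratin. Over 80% of UMIs were mitochondrial in 38 of the Dcn barcodes and 17 of the Col3a1 barcodes, beside 1 for Wt1 and 4 for Muc16, and none of these had a simple keratin. The difference between partner genes in these shares was not tested.

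**Figure D3:**
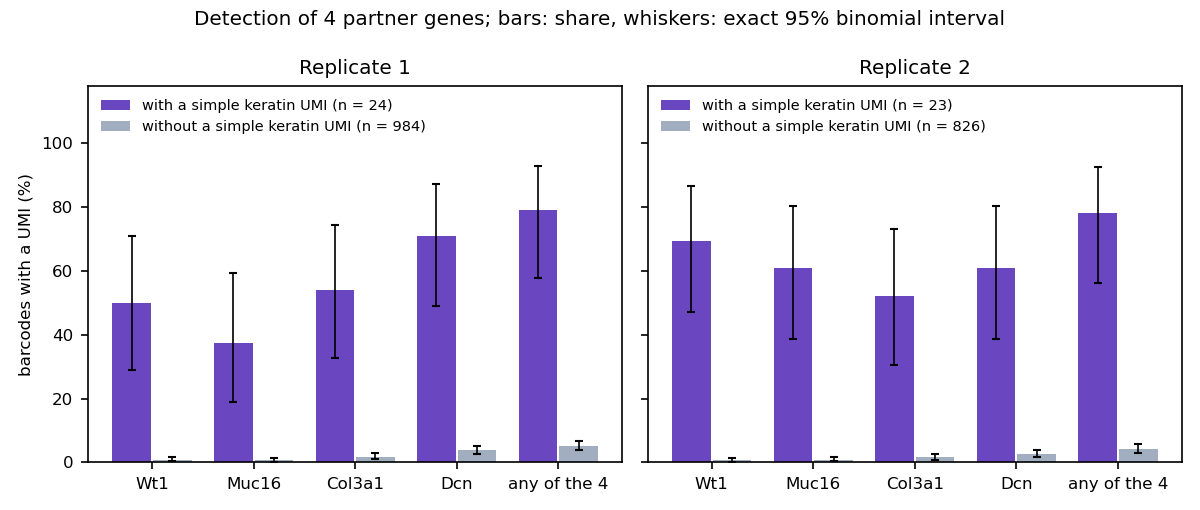
Share of barcodes with a UMI of Wt1, Muc16, Col3a1, Dcn or any of the 4, among barcodes with and without a simple keratin UMI in each library; whiskers are exact binomial 95% intervals, which cover counting error only. In both libraries every interval of the keratin barcodes lies above that of the others.

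By mitochondrial share the overlap was as follows. At up to 20% mitochondrial UMIs all 25 simple keratin barcodes had at least 1 partner gene (interval 86.3% to 100%): 22 had Wt1, 18 Muc16, 16 Col3a1 and 23 Dcn. These 25 were 65.8% of the 38 partner barcodes in that class. Over 20%, 12 of 22 keratin barcodes had one (54.5%), and they were 14.5% of 83 partner barcodes. All 10 keratin barcodes with none of the 4 genes lay over 20% mitochondrial UMIs and had a median of 818 UMIs, while 14 barcodes had all 4 partner genes and a median of 6121 UMIs.

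The same held for the individual keratins. Krt8 barcodes had a partner gene in 17 of 17 cases, Krt7 barcodes in 14 of 14 and Krt14 barcodes in 6 of 6, beside 31 of 38 for Krt19 (81.6%) and 11 of 14 for Krt18 (78.6%). All 6 Krt14 barcodes had Wt1, Muc16 and Dcn, and 4 had Col3a1. Simple keratin and Ptprc were never found in the same barcode (0 of 97 Ptprc barcodes). As simple keratin was found in only 2.53% of all barcodes, that count does not set Ptprc barcodes apart from all barcodes. Whether they differ from the other low-haemoglobin barcodes was not tested.

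Detection of a keratin among the 121 partner barcodes was higher at greater depth. It was 6 of 45 (13.3%) at 500 to under 1000 UMIs, 5 of 33 (15.2%) from 1000, 12 of 25 (48%) from 2000 and 14 of 18 (77.8%) at 5000 UMIs or more. The 37 partner barcodes with a simple keratin had a median of 3256 UMIs and 7.08% mitochondrial UMIs, against 1051 UMIs and 87.8% in the 84 without one. At up to 20% mitochondrial UMIs the median was 5727 UMIs in the 25 with a simple keratin, against 2646 in the 13 without one. Of these 13, 10 were low-haemoglobin barcodes and 3 were red cell barcodes with 10960, 6475 and 5066 UMIs. Those 3 raise the median of the 13 and are also counted, without a keratin, among the 18 at 5000 UMIs or more. With all barcodes thinned to 500 UMIs, 20 of the 121 (16.5%) still had a simple keratin. Red cell and Ptprc barcodes had none before thinning, which only removes UMIs, so they offer no comparison here.

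**Figure D4:**
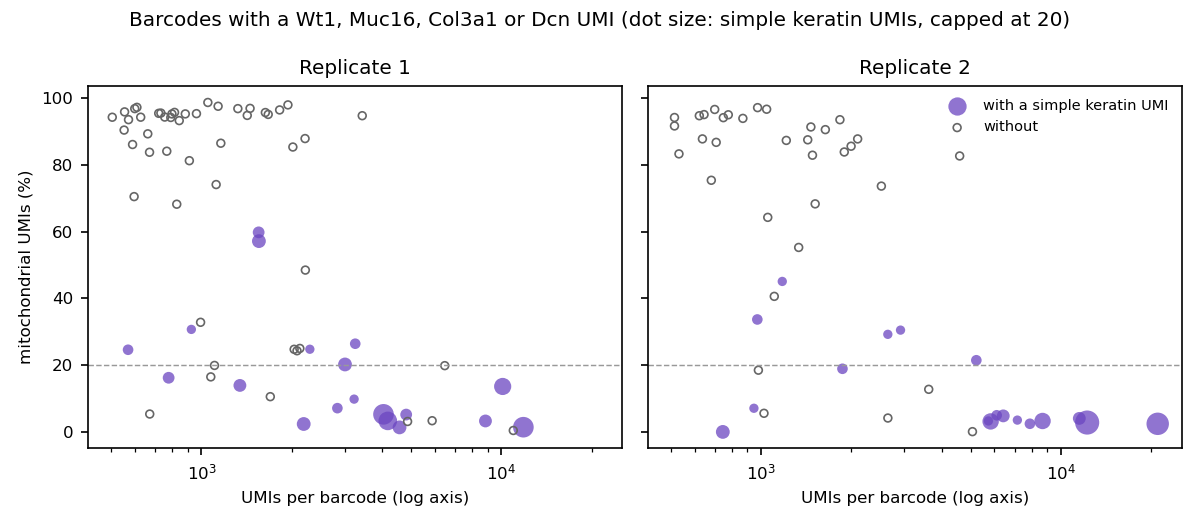
Each of the 121 barcodes with a Wt1, Muc16, Col3a1 or Dcn UMI by its depth (UMIs, log axis) and mitochondrial share; filled dots have a simple keratin UMI, sized by their number up to 20, and open dots have none. Keratin dots fill the deep, low-mitochondrial corner, and most open dots lie over 80% mitochondrial UMIs.

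Genes whose detection was most like that of the simple keratins were ranked by the Jaccard index (shared barcodes over barcodes with either) across all 1857 barcodes, for 3227 genes found in at least 3 keratin barcodes of each library. This is a description with no test, and all points share libraries and depth. Efna5, an ephrin ligand, ranked first at 0.485 (32 shared barcodes, 68.1% of the keratin barcodes and 62.7% of its own). It was followed by 2610307P16Rik (0.481), Wt1 (0.467), Bicc1 (0.462), an RNA-binding protein, Slc4a4 (0.459), a bicarbonate cotransporter, and Cobl (0.450), an actin nucleator. The transcription factor Bnc2 (0.444), the chloride channel Ano1 (0.443), the adhesion receptor Adgrd1 (0.442) and the kinase Stk39 (0.441) complete the first 10. Muc16 ranked 54 (0.377), Col3a1 129 (0.321) and Dcn 182 (0.295).

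To describe what else the keratin barcodes carried, the 25 low-haemoglobin keratin barcodes (12 in replicate 1, 13 in replicate 2) were set against the other 80 and 119 low-haemoglobin barcodes of the same library. All list levels below are CPM of the summed set, as mean ± SD of the 2 libraries, and UMIs or genes counted in keratin barcodes are over all 47 with a simple keratin. The sets differ in more than keratin: the median depth was 5727 against 1022 UMIs and the median gene number 2111 against 102. Of the other barcodes, 55 in replicate 1 and 5 in replicate 2 had a Ptprc UMI, 45.8% of their UMIs in replicate 2 came from the single feature Gm42418 (13.8% in replicate 1), and 16.4% and 2.77% from haemoglobin. What part these have in the differences was not tested. On this scale of total UMIs, the genes tested below had a median log2 fold change of 1.26 in keratin barcodes, and that shift is part of every difference between list levels.

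Many cell junction genes were detected in keratin barcodes, while Cdh1 (1 of its 3 UMIs there) and Epcam (2 of 2) had too few UMIs to compare. All 16 cadherin and catenin genes listed had a UMI somewhere and 12 had one in keratin barcodes, where the list stood at 2218 ± 322, against 408 ± 154 in the other barcodes. Cdh11, a cadherin of mesenchymal cells, gave 136 of its 170 UMIs there. The catenins Ctnna1 and Ctnnd1, which link cadherins to actin and stabilise them, and Afdn (afadin) gave 55, 41 and 45 UMIs. P-cadherin, Cdh3, a classical cadherin of basal epithelium and mesothelium, was singled out after its values were seen: 37 of its 38 UMIs lay in 12 keratin barcodes, against 3 Cdh1 UMIs in all. Other genes of the list lay mostly elsewhere, and are also named after their values were seen: vinculin, Vcl, an actin linker, gave 16 of its 94 UMIs in keratin barcodes (log2 fold change -1.54, SE 0.54, edgeR adjusted p = 0.168), and beta-catenin, Ctnnb1, gave 12 of 36.

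Tight junction genes stood at 1837 ± 169, against 210 ± 33.4, and 14 of 22 listed genes had a UMI in keratin barcodes. Pard3, a polarity protein, gave 69 of its 88 UMIs there, the claudin Cldn15 45 of 60, the junction protein cingulin-like Cgnl1 44 of 70 and the scaffold Tjp1 39 of 53. Desmosome genes and keratin linkers were lower, at 671 ± 36.8 against 109 ± 85.1, with 9 of 13 genes detected. The cytolinkers Plec and Ppl gave 40 and 33 UMIs and the desmosomal cadherin Dsg2 gave 15, while desmoplakin, Dsp, gave 1. Hemidesmosome and basement membrane contact genes stood at 1535 ± 66.2 against 516 ± 283, with Dst (75 UMIs) and Itgb1 (55 UMIs) the most abundant in keratin barcodes. The integrin Itga6, the most abundant gene of the list over all barcodes, gave 18 of its 155 UMIs there (log2 fold change -1.77, SE 0.51, edgeR adjusted p = 0.121), and the laminin Lamb3 gave 0 of 15. In the edgeR fit described below, 4 of the 13 genes of that list were tested, with a median log2 fold change of 1.00, and 3 were positive.

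Epithelial regulators were sparse in both sets, at 201 ± 4.50 against 192 ± 152. Cd24a, a surface glycoprotein with 1638 UMIs in red cell barcodes, made up 46 of the 54 UMIs in the other barcodes and 0 of the 31 UMIs in the 25 keratin barcodes. In keratin barcodes 5 of 17 had a UMI: Klf5 gave 14 UMIs, Spint2 10 and Grhl1 6, and the epithelial master genes Grhl2 and Trp63 had none. Repressors of epithelial genes and vimentin stood at 993 ± 448 against 854 ± 922, a difference within the spread of either set. Vim gave 69 UMIs, Zeb1 54 and Zeb2 36 in keratin barcodes. Keratin barcodes thus also held transcripts of vimentin, the intermediate filament of mesenchymal cells.

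Mesothelial genes were the most abundant of the lists of cell markers. All 14, Wt1 and Muc16 included, had a UMI in keratin barcodes, at 8674 ± 1128, against 533 ± 54.7 in the other barcodes. The membrane glycoprotein Gpm6a gave 333 of its 393 UMIs in keratin barcodes, Bnc2 235 of 296, Muc16 189 of 224 and the uroplakin Upk3b 182 of 248. Every one of the 25 barcodes had at least 3 UMIs of the list (median 23, highest 318). Mesenchymal genes, Col3a1 and Dcn included, stood at 4374 ± 2072 against 340 ± 137, with 0 to 216 UMIs per barcode (median 13).

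Markers of other epithelia are given by list. The list for gut, lung and liver epithelium had no UMI in any of the 47 keratin barcodes (0 of 12 genes). It was also near 0 elsewhere, with 20 UMIs in 8 of the 1810 barcodes without simple keratin. In the other low-haemoglobin barcodes it stood at 4.97 ± 7.03, from 2 UMIs in 1 barcode. As 8 of the 12 genes had no UMI in any barcode, this 0 does not set the keratin barcodes apart. The skin keratinocyte and gland list stood at 774 ± 156 against 23.9 ± 22.4, or 540 ± 174 without the rich barcode. Of its 12 genes, 7 gave 133 UMIs in 23 of the 47 keratin barcodes, and the other 5 had no UMI in any barcode. Lgals7 gave 65 of its 72 UMIs in 15 keratin barcodes, Dmkn 33 of 36, of which 23 in the rich barcode, and Sbsn 17 of 24. Krt17, a keratin of skin appendages, gave 8 UMIs in 2 barcodes, neither of them the rich one. The smooth and skeletal muscle list stood at 156 ± 148, or 49.4 ± 2.35 without the rich barcode, against 10.6 ± 7.94. Leukocyte genes stood at 58.6 ± 34.8, with 2 of 16 genes detected, against 12872 ± 17607. Endothelial genes stood at 92.7 ± 13.3 against 330 ± 123, and platelet genes at 122 ± 77.0 against 1005 ± 22.5.

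**Figure D5:**
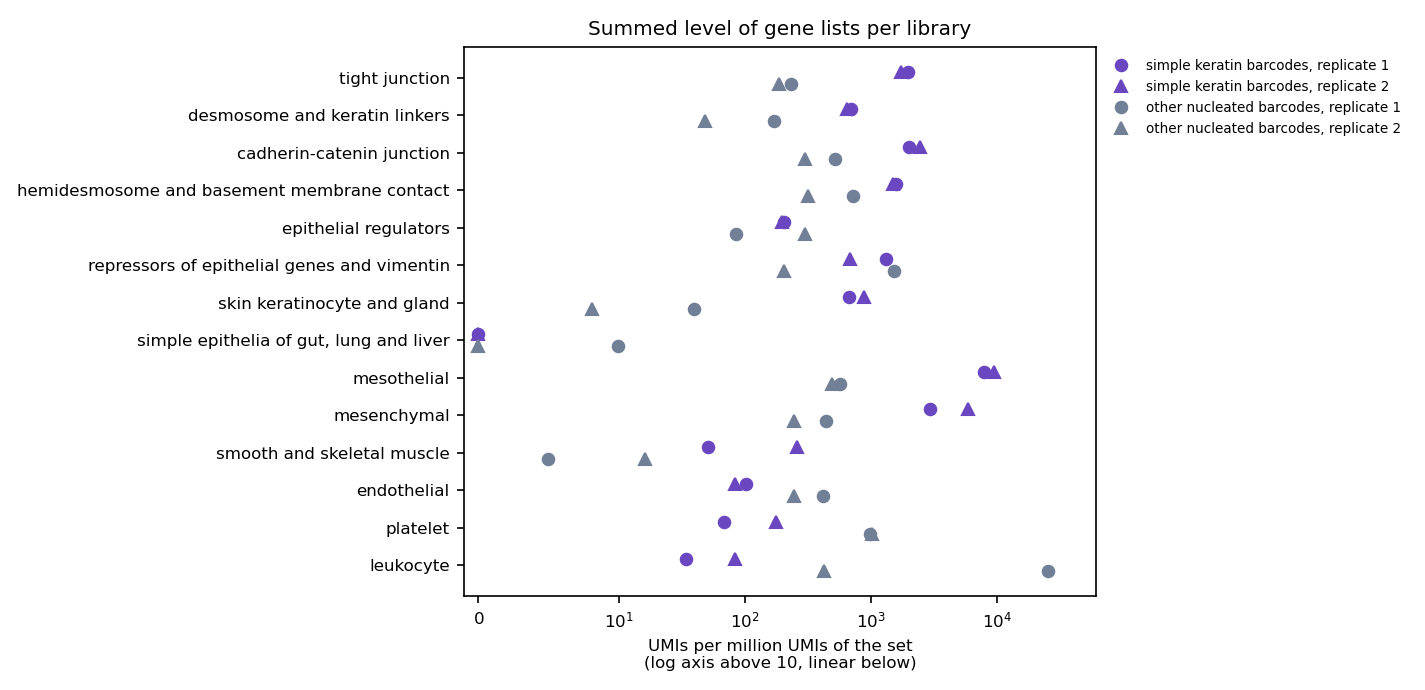
Summed level of each gene list in the 12 and 13 simple keratin barcodes (purple) and the other 80 and 119 low-haemoglobin barcodes (grey) of each library, in CPM of the set (log axis above 10, linear below). Mesothelial, mesenchymal, junction and skin keratinocyte lists lie to the right in keratin barcodes of both libraries, and leukocyte, platelet and endothelial lists lie to the left.

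These sums were tested with edgeR's quasi-likelihood test (2013 genes, library as a block, Benjamini-Hochberg adjustment). No gene passed an adjusted p of 0.05 in either direction, so that 0% of the genes tested were called, with 1 residual degree of freedom among 4 sums. The smallest adjusted p was 0.0751, and 521 genes had an unadjusted p under 0.05 (317 higher, 204 lower in keratin barcodes). The 317 include Krt19, Krt7 and Krt8, whose own UMIs define the keratin barcodes, and Krt19 was among the genes at the smallest adjusted p. DESeq2 called 11 genes higher (0.546% of the 2013) and 47 lower (2.33%), and 3 of the 11 were Krt19, Krt7 and Krt8, which chose the barcodes. It gave no adjusted p for 664 of the 2013 genes, so these could not be called. None of the differences below passed the edgeR test unless stated.

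By size, the mesothelial list had a median log2 fold change of 2.84 with 14 of 14 genes positive, the mesenchymal list 3.17 (7 of 24 tested, 7 positive), the tight junction list 2.02 (6 of 22, 6 positive) and the cadherin list 2.03 (6 of 16, 5 positive), beside 0.01 over all genes tested. A gene could enter the test through the keratin barcodes alone, so these counts of positive genes describe the fit and support nothing further. Wt1 stood at 868 and 864 CPM in keratin barcodes, against 54.7 and 48.6 CPM in the other barcodes, a log2 fold change of 2.94 (SE 0.74, edgeR adjusted p = 0.101). Both keratin values lay above both of the others. For Muc16 the log2 fold change was 2.71 (SE 0.88, adjusted p = 0.146), for Dcn 2.68 (SE 0.65, adjusted p = 0.0927) and for Col3a1 1.92 (SE 0.81, adjusted p = 0.212). The libraries were unlike for Col3a1, which stood at 510 CPM in keratin barcodes against 214 CPM in the others in replicate 1, and at 2415 against 72.9 CPM in replicate 2. Scaled by total UMIs, its log2 difference was 1.19 in replicate 1 alone and 4.76 in replicate 2 alone. For Dcn these were 2.80 and 4.39, for Muc16 3.85 and 3.39, and for Wt1 3.63 and 3.75.

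Krt14 stood at 102 CPM in replicate 1 and 458 CPM in replicate 2 in keratin barcodes, and at 102 and 71.6 CPM without the rich barcode. It had 0 UMIs in the other low-haemoglobin barcodes, which restates that no barcode had Krt14 without a simple keratin, so no test or fold is given for it. Cdh1, Epcam and Krt5 had too few UMIs for the test. Zeb1 had a log2 fold change of -0.14 (SE 0.75, edgeR adjusted p = 0.929), and its direction turned with the scaling. Zeb2 stood at -1.87 (SE 0.89, adjusted p = 0.259), and its direction was opposite in replicate 2 alone, scaled by total UMIs.

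The number of calls changed with what the keratin barcodes were set against, in alternatives added after the data were seen. Against only those low-haemoglobin barcodes that had a Ptprc UMI (55 and 5), edgeR called 386 of 1867 genes higher (20.7%) and 216 lower (11.6%). Ptprc itself chose these barcodes, and 2 of the genes called higher were simple keratins. Wt1 had 51 and 83 UMIs in keratin barcodes, against 0 and 0 in the Ptprc barcodes, and a gene with no UMI in the Ptprc barcodes could enter the test only through the keratin barcodes, so no count by list is given. Against only the 10 barcodes with a partner gene and no simple keratin, edgeR called 0 of 523 genes (0% in each direction), with 27 at an unadjusted p under 0.05 and a smallest adjusted p of 0.639. There the mesothelial list had a median log2 fold change of 0.26 over 8 genes tested (6 positive), the mesenchymal list 0.07 over 3 (2 positive), the cadherin list 0.75 over 3 (2 positive) and the tight junction list -0.09 over 3 (1 positive), beside 0.11 over all genes. The skin keratinocyte and gland list had 1 of its 12 genes tested there, at 1.59 and not called. Wt1 and Muc16, which are in the mesothelial list, and Col3a1 and Dcn, which are in the mesenchymal list, chose these barcodes. A p that misses the threshold does not show that these barcodes are alike.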

How the data were processed

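Single-cell RNA was measured in 2 libraries of iChip-sorted blood, read as gene by barcode matrices. The deposited values are raw UMI counts, whole numbers that the authors had not normalized. Cell Ranger 7.1.0, Seurat 5 and mm10 are named in the submitters' processing notes, without saying what Seurat was used for. The labels do not state how barcodes were called, and every deposited barcode had at least 500 UMIs. No doublet caller was run here, and removal of doublets before deposit is not stated.

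The members, the gene lists and the tests were chosen with earlier results of these data known. Barcodes were used as deposited and grouped by mitochondrial UMIs (limit 20%), by haemoglobin as a share of non-mitochondrial UMIs (limit 40%) and by at least 1 UMI of a gene. Shares have exact Clopper-Pearson 95% intervals (scipy 1.17.1) and cover counting error only, and a count of 0 is given with the share that 3 counts would allow. Thinning drew 500 UMIs per barcode without replacement, and no barcode was shallower. Gene coordinates came from GENCODE M21 (32235 of 32285 IDs matched, 99.8%), and promoter windows from RefSeq.

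UMIs summed per barcode set and library were tested with edgeR 4.0.16 in R 4.3.3 (filterByExpr, TMM scaling, library as a block, adjusted p under 0.05), and DESeq2 1.42.0 was an alternative. The script was run on simulated counts in which both libraries shared the same profile. The real sums of the other barcodes were unlike between libraries, so that run does not show how the test performs on these data. TMM factors ran from 0.289 to 1.64. The SE of a fold change was derived from the test statistic and is approximate. Both sums of a library come from the same sample, so the library pairs them by design. The 4 simple keratins chose the barcodes, so no test of them is read as a result. They were not taken out of the fit, and 3 of them (Krt19, Krt7 and Krt8) were among the 2013 genes tested. Genes named are the members, the 4 partner genes, at most 4 genes a list with at least 5 UMIs in keratin barcodes, and the 10 genes most like the keratins by the Jaccard index. Genes outside this rule (Cdh3, Vcl, Ctnnb1, Itga6, Lamb3, Cd24a, Krt16, Dsp, Grhl2, Trp63) were named after their values were seen.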

Additional observations from a re-analysis of the deposited data

How the results depend on the processing

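The share of barcodes with a member UMI was 2.59% as the mean of the libraries (2.48% to 2.71% with either replicate left out). It was 2.30% at up to 20% mitochondrial UMIs, 4.37% with at least 100 detected genes, 1.32% when 2 UMIs were required and 1.33% after thinning to 500 UMIs. Keratin barcodes with a basal keratin were 12.9% (8.33% to 17.4% with a replicate left out), 23.7% at up to 20% mitochondrial UMIs and 23.3% when 2 UMIs were required. Overlap with a partner gene was 78.7% (78.3% to 79.2%), and 100%, 90.2%, 87.8% and 60% under the same 4 settings in the order above, with 77.1% when Cdh1 and Epcam counted as keratins. Members together stood at 55.2 CPM (27.5 to 82.9), at 24.9 without the richest barcode, and at 341 per 1e6 UMIs that are neither haemoglobin nor mitochondrial.

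edgeR's 0 calls became 245 higher and 143 lower with DESeq2 size factors, 0 and 2 with total UMIs alone, 74 and 179 with no filter on low counts, 187 and 87 with no replicate block, and 317 and 240 with barcodes over 20% mitochondrial UMIs. They became 198 and 147 with haemoglobin under 20%, and 11 and 47 in DESeq2's test. Requiring 2 simple keratin UMIs left 0 calls, with 479 genes at an unadjusted p under 0.05. Of the alternatives added after seeing the data, at least 100 detected genes gave 144 and 140, leaving out the richest barcode 95 and 77, and the Ptprc reference 386 and 216. In most of these settings the genes called higher included simple keratins, which chose the barcodes, at up to 4 in a setting. The cause of these shifts was not tested. Under total UMIs alone the median log2 fold change over all genes was 1.26. Leaving out a replicate left no residual degrees of freedom and gave values with no test, scaled by total UMIs.

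Zeb1's log2 fold change of -0.14 turned to 1.02 with total UMIs alone, 0.043 with no replicate block, 0.014 with barcodes over 20% mitochondrial UMIs, 0.0035 against Ptprc barcodes and 0.87 against partner barcodes, and to 0.60 and 1.07 with a replicate left out. Zeb2 turned to 1.47 without replicate 1 and stood at -2.80 without replicate 2, and Col3a1 to -0.64 against partner barcodes. With 3 UMIs of Cdh1 and 2 of Epcam, depth limits any statement on the adhesion genes.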
